A study of Rattus norvegicus with 36 samples.

Results

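Pck1 and the enzymes that work with it in gluconeogenesis were followed across 6 groups of rat colon libraries. The 6 genes are Pck1, Pck2, Fbp1, Fbp2, Pc and G6pc3, found by symbol among the 17352 named genes of the RNA-seq table. Pck1 was chosen by its measured levels, since it had already been seen to be low in tumors of rats on control diet (PCT) against normal-looking colon of Pirc rats on that diet (PCN), and the other members were added to it by function. Its values, and those of the other members, in PCT against PCN are therefore a description without a test.

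Poly(A) RNA was sequenced from the colon of male F344 rats that were either wild type (WT) or Pirc, the polyposis in rat colon line F344/NTac-Apc am1137, which carries a germline mutation of Apc and develops colon polyps. All rats ate AIN93 diet, with or without 10% (w/w) freeze-dried baby spinach (SPI), for 26 weeks, and were 30 weeks old at the end. The groups were WT colon on control diet (WCN), WT colon on SPI (WSN), normal-looking Pirc colon on control diet (PCN), normal-looking Pirc colon on SPI (PSN), Pirc tumors on control diet (PCT) and Pirc tumors on SPI (PST), with 3 libraries each. Levels are given in RPKM, reads scaled to gene length and to the mapped reads of the library. Levels of different genes are set side by side below, but some may be failed estimates. Tpi1, a gene of glycolysis, was listed at 0 in every library.

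Gluconeogenesis builds glucose from lactate, alanine, glutamine or glycerol and is best known in liver and kidney, with a smaller part described in the intestine. It runs glycolysis backward except at the steps that cannot be reversed, which need enzymes of their own. Pyruvate carboxylase (Pc) makes oxaloacetate from pyruvate in mitochondria and also refills the tricarboxylic acid cycle. Phosphoenolpyruvate carboxykinase (PEPCK) turns oxaloacetate into phosphoenolpyruvate, in the cytosol through Pck1 and in mitochondria through Pck2. Fructose-1,6-bisphosphatase works near the end of the path, with Fbp1 as the liver and kidney form and Fbp2 as the muscle form. Glucose-6-phosphatase releases free glucose, with G6pc as the liver, kidney and intestinal form and G6pc3 as the form found in most tissues.

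Pck1 is the textbook case of a promoter that answers to hormones through cyclic AMP, as shown mostly in liver. The stretches from 250 bases before to 50 bases after the gene start are shown here for Pck1, for its mitochondrial partner Pck2 and for Fbp1, because Pck1 and Fbp1 both fell in PST vs. PSN and Pck2 is the isoform that pairs with Pck1. They come from RefSeq on GRCr8, which held such a stretch for 4 of the 6 members. Pck1 lies at chr3:182348322-182348621, Pck2 at chr15:32997603-32997902 and Fbp1 at chr17:2213457-2213756, each on the plus strand. Capitals mark every match, on either strand, to TGACGT (the core of a cyclic AMP response element), TATTTAA (an element of the kind that places the polymerase), GGGCGG (a GC box) or CACGTG (an E-box), and no matches overlapped.
Pck1: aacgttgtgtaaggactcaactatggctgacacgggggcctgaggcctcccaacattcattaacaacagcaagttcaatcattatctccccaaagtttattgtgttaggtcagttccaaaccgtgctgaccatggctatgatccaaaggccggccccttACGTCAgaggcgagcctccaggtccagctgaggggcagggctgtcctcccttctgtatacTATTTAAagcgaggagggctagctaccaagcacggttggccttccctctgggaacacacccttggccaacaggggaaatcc
Pck2: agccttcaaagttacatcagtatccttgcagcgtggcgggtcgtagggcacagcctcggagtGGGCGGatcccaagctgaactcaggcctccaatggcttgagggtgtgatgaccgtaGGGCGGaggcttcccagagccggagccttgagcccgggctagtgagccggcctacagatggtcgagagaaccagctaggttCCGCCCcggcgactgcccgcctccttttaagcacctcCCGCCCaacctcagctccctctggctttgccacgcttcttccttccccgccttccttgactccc
Fbp1: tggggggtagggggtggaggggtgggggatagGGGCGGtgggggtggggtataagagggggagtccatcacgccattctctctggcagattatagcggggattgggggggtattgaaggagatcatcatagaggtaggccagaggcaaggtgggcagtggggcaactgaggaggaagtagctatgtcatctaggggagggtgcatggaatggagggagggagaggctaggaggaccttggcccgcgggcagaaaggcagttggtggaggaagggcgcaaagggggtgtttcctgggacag

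The Pck1 stretch held 1 TGACGT match, written here as ACGTCA and starting 91 bases before the gene start, and 1 TATTTAA match starting 31 bases before it. The Pck2 stretch held 4 GGGCGG matches and neither of those motifs. The Fbp1 stretch held 1 GGGCGG match. The G6pc3 stretch held 2 CACGTG and 3 GGGCGG matches. Among 33469 rat promoters of the same length, 7.94% held TGACGT, 4.58% TATTTAA, 33.1% GGGCGG and 6.42% CACGTG. The matches describe letters in these windows only. Fbp1 and Fbp2 are neighboring coding genes on chromosome 17.

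The read depth of the libraries is not given, but steps in the lowest values put it between 0.623 and 1.53 times that of the median library. Of 17352 genes, 2707 were listed at 0 in every library, among them Col1a2, a collagen gene that fibroblasts use heavily, so a listed 0 may be a failed estimate. Epithelial markers (8 genes, among them Epcam, Cdh1 and Krt8) summed to between 6610 and 10400 RPKM in every library. In PST vs. PSN 3 of the 8 were lower and 1 was higher, where 16.5% of all genes were called lower and 25.9% higher. Liver and kidney markers other than Apoa1 were at or near 0 (Slc34a1 listed at 0, and Alb, Tat, Ttr and Umod under 1 RPKM in all 18 libraries). With Apoa1 the list summed to as much as 208 RPKM in PSN and 2.91 in PST. Apoa1, the remaining gene of that list, is made by the gut as well and was lower in PST vs. PSN (log2 fold change -3.37). Tests used limma on log2(RPKM + 0.5) for 11544 genes, with p-values adjusted over all of them and a call at an adjusted p under 0.05, so a log2 fold change is on that scale and understates the change of genes with low values.

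**Figure D1:**
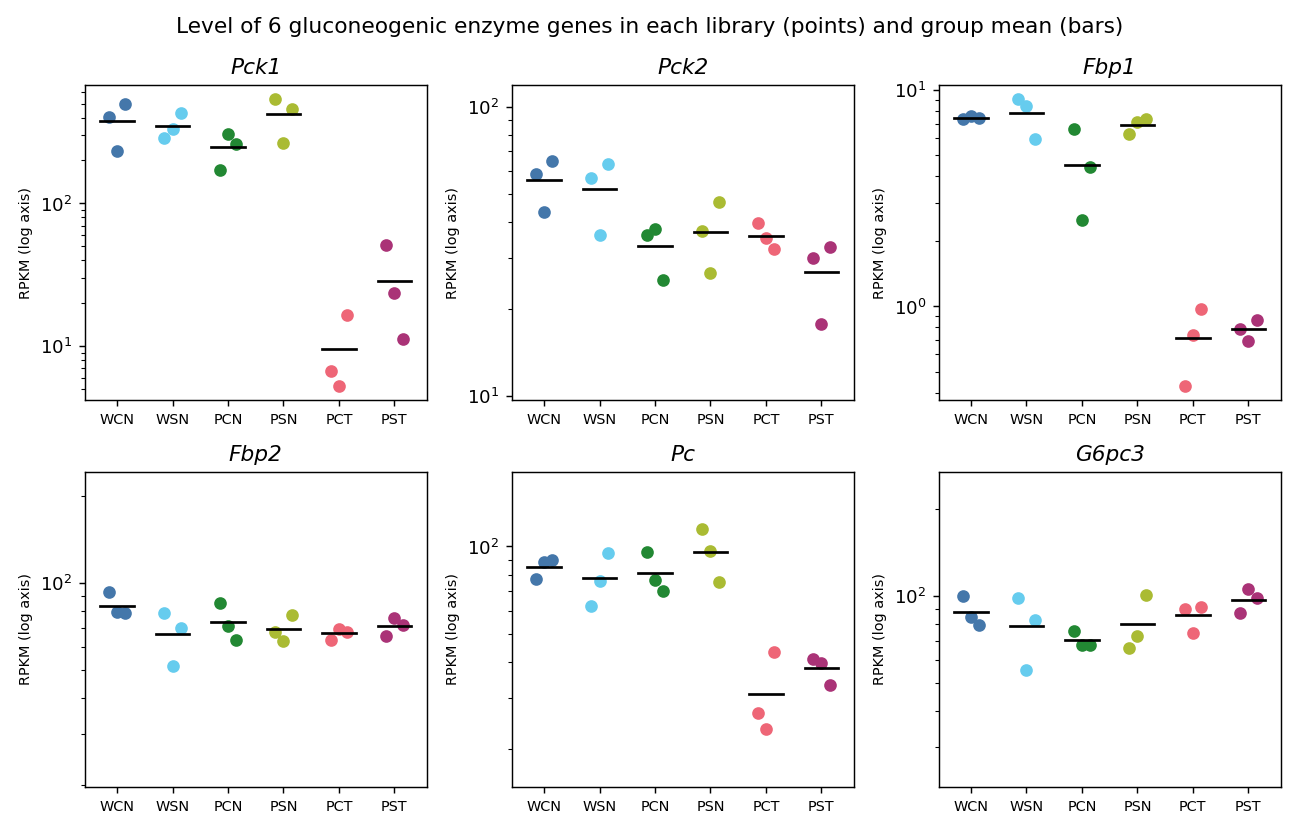
RPKM (log axis) of the 6 genes in each library, with 3 points a group and a bar at the group mean. Pck1, Fbp1 and Pc lay lower in every PCT and PST library than in any library of the other 4 groups. The share of all genes with such a gap was not counted. Fbp2 and G6pc3 overlapped between every pair of neighbors in the order of group means.

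Pck1 had the highest RPKM of the 6 genes in normal colon and was among the lower ones in tumors. In WCN its level was 403, 232 and 499 RPKM in the 3 libraries, and in WSN 290, 334 and 430. In PCN it was 172, 308 and 261 RPKM, and in PSN 537, 266 and 460. These 12 libraries overlapped between groups and spanned 172 to 537 RPKM. In PCT, Pck1 was 6.73, 5.29 and 16.5 RPKM, and in PST 51.1, 23.6 and 11.2. No tumor library reached the lowest normal-looking one, and the PCT and PST ranges overlapped. Ordered by group mean ± SD (n = 3), Pck1 stood at 421 ± 140 in PSN, 378 ± 135 in WCN, 351 ± 71.9 in WSN, 247 ± 68.9 in PCN, 28.6 ± 20.4 in PST and 9.51 ± 6.11 in PCT. In that order, PCN and PST were the only neighbors whose ranges did not overlap.

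Pck2, the mitochondrial PEPCK, varied far less. It was 58.6, 43.3 and 64.9 RPKM in WCN and 56.7, 36.0 and 63.3 in WSN. In normal-looking Pirc colon it was 36.1, 37.8 and 25.2 in PCN and 37.2, 26.5 and 46.8 in PSN. In tumors it was 39.6, 35.1 and 32.1 in PCT and 30.1, 17.7 and 32.8 in PST. The WCN and WSN means were highest, every neighboring pair of groups in the order of means overlapped, and PST had the lowest mean, 26.9 ± 8.02.

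Fbp1 was low in normal colon, between 2.51 and 9.07 RPKM. It was 7.34, 7.63 and 7.40 RPKM in WCN, 9.07, 8.43 and 5.94 in WSN, 6.58, 2.51 and 4.42 in PCN and 6.30, 7.11 and 7.34 in PSN. In tumors Fbp1 was under 1 RPKM in all 6 libraries, at 0.43, 0.74 and 0.97 in PCT and 0.79, 0.69 and 0.87 in PST. The lowest normal-looking value, 2.51 in PCN replicate 2, still lay above the highest tumor value. Fbp2, known as the muscle form, had the higher RPKM of the pair in every library. Its group means ran from 66.8 RPKM (PCT and WSN) to 83.5 (WCN), with libraries between 51.5 and 92.8, and all neighboring groups overlapped.

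Pc was 77.5, 88.1 and 89.6 RPKM in WCN, 62.4, 76.2 and 94.7 in WSN, 95.9, 76.5 and 70.2 in PCN and 115, 96.5 and 75.5 in PSN. In tumors it was 26.6, 23.4 and 43.1 in PCT and 40.8, 39.7 and 33.3 in PST. The highest tumor library thus lay below the lowest library of normal colon, and the 4 normal groups overlapped one another. G6pc3 had group means from 70.3 ± 4.57 RPKM in PCN to 97.1 ± 9.40 in PST, with all neighbors overlapping. G6pc, the form that liver, kidney and intestine use for releasing glucose, reached at most 0.32 RPKM and was listed above 0 in 7 of 18 libraries.

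In tumors of SPI-fed rats against normal-looking colon of SPI-fed Pirc rats (PST vs. PSN), 3 of the 6 genes fell and none rose. The rule that chose Pck1 did not use these libraries, but the same direction had already been seen in them in earlier work on the data. The p-values below are thus not from an independent test. Pck1 fell by 4.05 on the log2 scale (SE 0.49, 95% interval -5.09 to -3.00, adjusted p = 2.94e-05), which is 16.5-fold lower in PST. Fbp1 fell by 2.53 (SE 0.27, adjusted p = 9.93e-06), or 5.78-fold, and Pc fell by 1.31 (SE 0.22, adjusted p = 0.000234), or 2.47-fold. Fbp1 reached 1 RPKM only in normal colon, so it passed the filter for testing only through the groups where it was high. Of all 11544 genes, 42.3% were called in PST vs. PSN, 25.9% as higher and 16.5% as lower, so a call by itself is common in this comparison. The 3 calls held under all 27 alternative settings. Part of these settings cannot move the estimate, such as leaving out a library of WCN, WSN, PCN or PCT. Weighting libraries by quality moved the Pck1 value most, to -4.65.

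The other members were not called in PST vs. PSN. Fbp2 differed by 0.03 on the log2 scale (95% interval -0.29 to 0.35, adjusted p = 0.890), and its sign turned with another scaling of the libraries, to -0.09. G6pc3 differed by 0.30 (interval -0.10 to 0.70, adjusted p = 0.219). For Pck2 the log2 fold change was -0.46 (interval -1.03 to 0.11, adjusted p = 0.179). A replicate block paired tumor and normal-looking colon of the same number as 1 animal. In that paired limma fit the spread of Pck2 was smaller (SE 0.13) and Pck2 was called lower (adjusted p = 0.0274). The paired adjusted p was 0.00102 for Pck1, 0.00139 for Fbp1 and 0.00339 for Pc, each larger than in the unpaired fit. Pck2 was lower in PST than in the same-numbered PSN library in 3 of 3 pairs, by log2 differences of -0.30, -0.57 and -0.51.

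Against WT colon on SPI (PST vs. WSN), 4 of the 6 members were lower and none higher, where 43.9% of all genes were called, 24.2% as higher and 19.7% as lower. This comparison shares its tumor libraries with the previous one and adds no separate tumors. The limit given there for Fbp1 holds here too, and the p-values are again not from an independent test. Pck1 fell by 3.83 (SE 0.49, adjusted p = 3.43e-05), Fbp1 by 2.68 (SE 0.27, adjusted p = 5.04e-06) and Pc by 1.01 (SE 0.22, adjusted p = 0.00156). Pck2 fell by 0.95 (SE 0.27, adjusted p = 0.00989), a call lost without PST replicate 2, which had the lowest Pck2 level (adjusted p = 0.0535). Fbp2 (0.10, interval -0.22 to 0.42) and G6pc3 (0.33, interval -0.07 to 0.74, adjusted p = 0.167) were not called. G6pc3 was called without WSN replicate 1 (0.52, adjusted p = 0.0468).

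On control diet the same members lay low in tumors, given here without a test. The log2 fold change in PCT vs. PCN was -4.75 for Pck1, -1.98 for Fbp1, -1.41 for Pc, 0.12 for Pck2, -0.12 for Fbp2 and 0.28 for G6pc3. Over all genes 32.7% were called in that comparison, 21.0% as higher and 11.7% as lower. Against WT colon on control diet, PCT differed by -5.34 for Pck1, -2.74 for Fbp1, -1.49 for Pc and -0.62 for Pck2. Between tumor and normal-looking colon of the same number, Pck1 was lower in the tumor in 6 of 6 pairs, by log2 differences from -3.38 (replicate 1 on SPI) to -5.74 (replicate 2 on control diet).

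**Figure D2:**
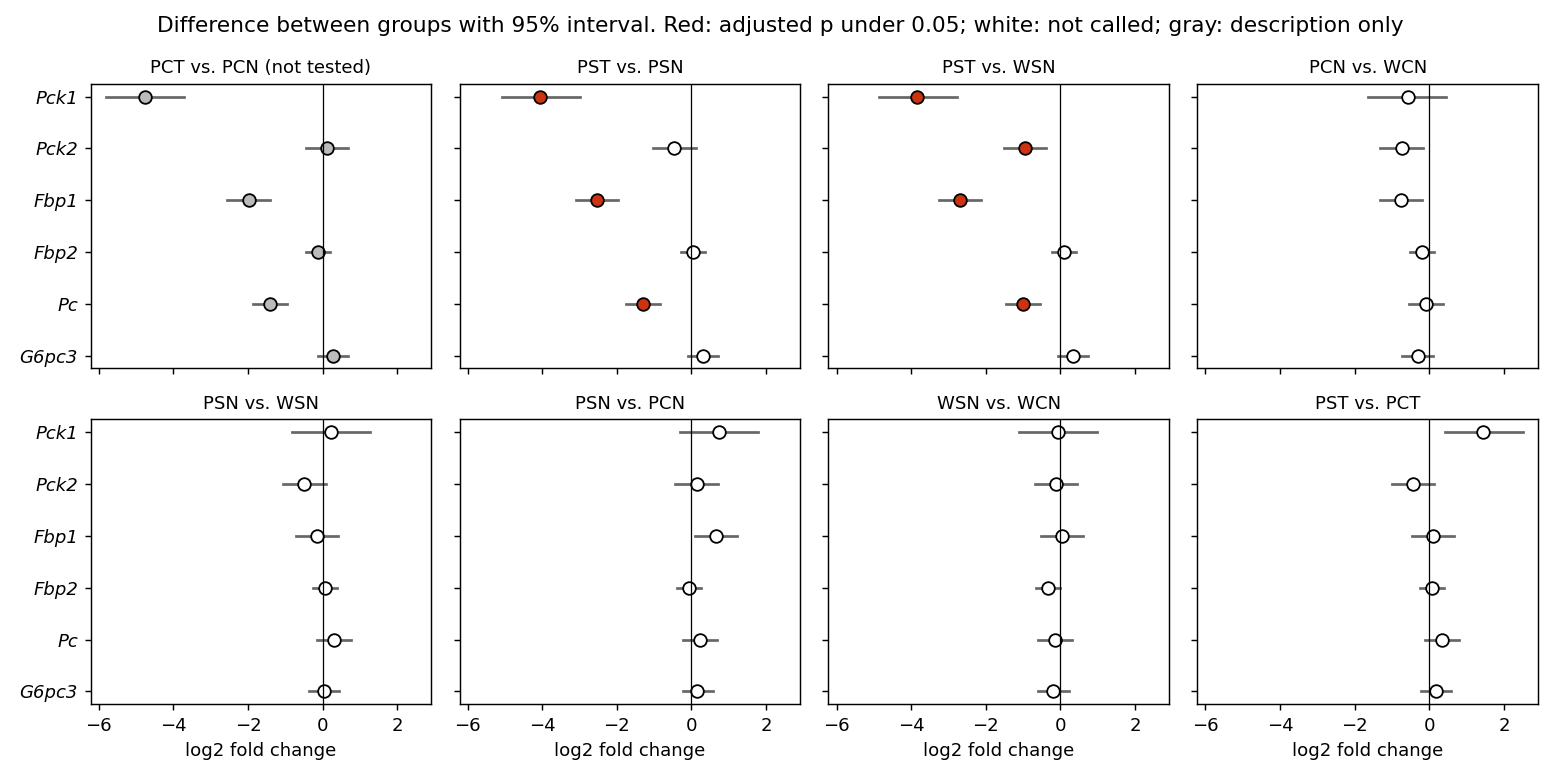
Log2 fold changes (points) with 95% intervals (lines) of the 6 genes in 8 comparisons, red where the adjusted p was under 0.05, white where not, gray for PCT vs. PCN, which was not tested. Calls occur only in the panels of PST against PSN and WSN, with Pck1 farthest from 0 at -4.05 and -3.83.

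Neither diet nor genotype alone gave a call for any of the 6 genes. SPI in WT colon (WSN vs. WCN) left Pck1 at a log2 fold change of -0.06 (interval -1.10 to 0.99), and no gene at all was called (0% of genes, with 376 at an unadjusted p under 0.05). SPI in normal-looking Pirc colon (PSN vs. PCN) came with a Pck1 difference of 0.75 (interval -0.30 to 1.79, adjusted p = 0.979) and an Fbp1 difference of 0.65 (interval 0.09 to 1.21, unadjusted p = 0.0260, adjusted p = 0.866), where 0.00866% of genes, or 1, were called. That comparison shares PCN with the one that chose Pck1. Intervals of this width leave room for a difference of more than 1 on the log2 scale in either of these genes.

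In tumors, Pck1 was higher on SPI than on control diet by 1.45 on the log2 scale (PST vs. PCT, interval 0.41 to 2.50, or 2.74-fold). Its unadjusted p was 0.00967 and its adjusted p 0.533, so it did not pass. The value was 0.68 with libraries weighted by quality, 0.91 without PST replicate 1 and 1.98 without PST replicate 3. No gene passed in PST vs. PCT (0% of genes, with 920 at an unadjusted p under 0.05). The 2 groups overlapped, since PCT replicate 3 (16.5 RPKM) lay above PST replicate 3 (11.2), and the comparison shares PCT with the one that chose Pck1. The other members differed by between -0.44 (Pck2) and 0.33 (Pc).

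Genotype on control diet (PCN vs. WCN) gave a lower value for all 6 members, none of them called, where 0.13% of genes were called. Fbp1 was at -0.75 (interval -1.32 to -0.19, unadjusted p = 0.0117, adjusted p = 0.247) and Pck2 at -0.74 (interval -1.31 to -0.18, unadjusted p = 0.0135, adjusted p = 0.252), and G6pc3 was at -0.31 (interval -0.72 to 0.09, adjusted p = 0.495). For these 3 genes the PCN and WCN ranges did not overlap, but the share of all genes without overlap was not counted. The median log2 fold change of all genes was 0.01. Pck1 was at -0.58 (interval -1.63 to 0.46, adjusted p = 0.628), in a comparison that shares PCN with the one that chose Pck1. On SPI (PSN vs. WSN) the members lay between -0.49 (Pck2) and 0.30 (Pc), with 0% of genes called and 937 at an unadjusted p under 0.05. The interaction of genotype and diet was 0.80 for Pck1 (interval -0.68 to 2.28, adjusted p = 0.915), again with 0% of genes called and 585 at an unadjusted p under 0.05. The interaction uses PCN too.

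The balance within each isoform pair moved with the members that fell. In the 12 libraries of normal colon, Pck1 made up between 82.7% and 93.5% of the summed RPKM of Pck1 and Pck2. In PCT it made up 14.5%, 13.1% and 34.0%, and in PST 62.9%, 57.1% and 25.5%. Pck1 was thus the larger of the pair in 2 of 6 tumor libraries, both on SPI, and the 2 tumor groups overlapped. Fbp2 exceeded Fbp1 by 6.10 to 28.3 times in normal colon and by 69.7 to 148 times in tumors, without overlap. These ratios use the same levels that chose Pck1 and carry no test. They also take RPKM to be comparable between genes, which was not tested.

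**Figure D3:**
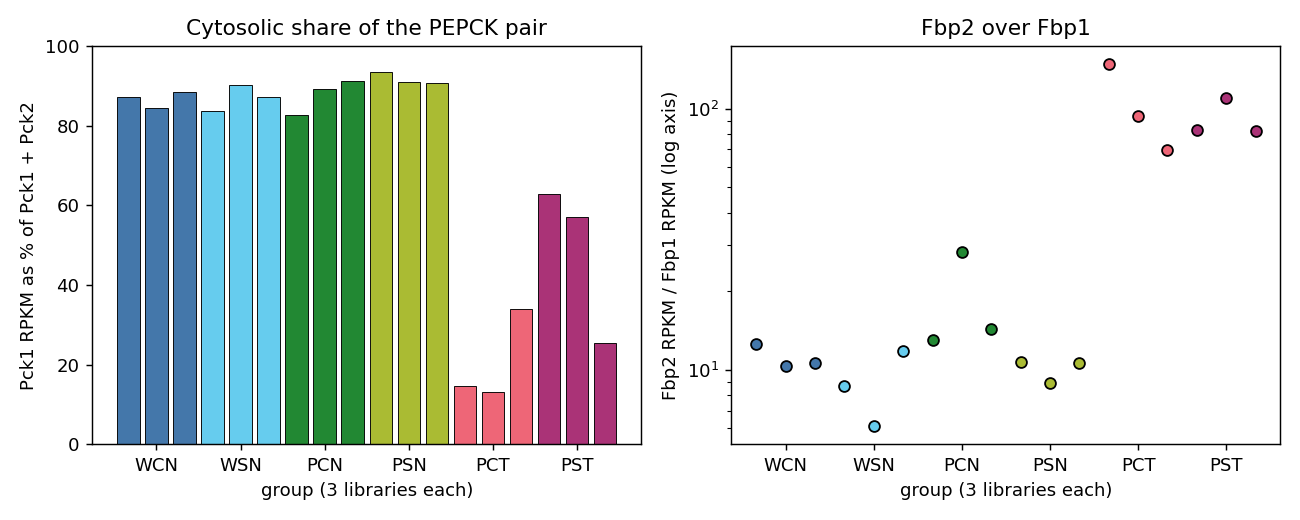
Left, Pck1 as a percent of the summed RPKM of Pck1 and Pck2 in each library, from 0 to 100. Right, Fbp2 RPKM over Fbp1 RPKM (log axis). The 12 libraries of normal colon lie at 82.7% or above on the left and at 28.3 or below on the right, and the tumors lie on the other side in both.

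The cell types in the tissue also differed between tumors and normal colon. Absorptive colonocyte markers (12 genes, among them Slc26a3, Car1 and Aqp8) summed to between 2770 and 15900 RPKM in normal colon, 994 to 1050 in PCT and 1330 to 3910 in PST. In PST vs. PSN, 5 of the 12 were lower and 1 was higher, where 16.5% of all genes were called lower and 25.9% higher. The median log2 fold change of the markers was -1.50 beside 0.12 over all genes. In bulk tissue, fewer cells of a type and less RNA per cell cannot be told apart. The PST libraries held 2660, 3910 and 1330 RPKM of these markers, with Pck1 at 51.1, 23.6 and 11.2 RPKM. PSN held 4420 to 15900 RPKM of the markers and 266 to 537 of Pck1, and PCN 2770 to 3640 and 172 to 308. The sum is weighted to the most abundant markers and gives no share of cells. Per 1000 RPKM of the markers, Pck1 stood at 32.1 to 98.3 RPKM in normal colon, 5.32 to 15.7 in PCT and 6.03 to 19.2 in PST. The part of absorptive cells in the fall of Pck1 was not tested.

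**Figure D4:**
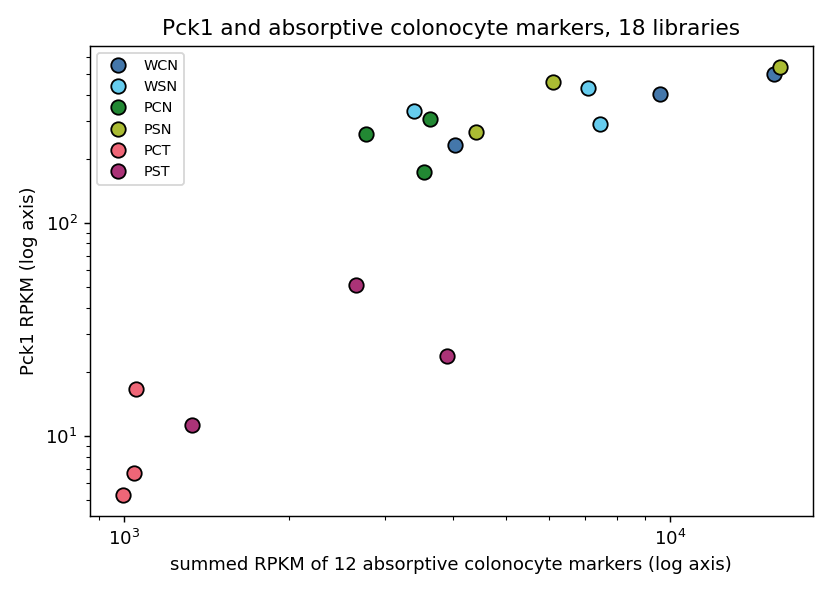
Pck1 RPKM against the summed RPKM of 12 absorptive colonocyte markers in 18 libraries (both axes log), colored by group. Tumors lie low on both axes, except that 2 PST libraries (2660 and 3910 RPKM of markers) come close to or above the lowest normal colon (2770) on the horizontal axis and stay below it in Pck1.

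Other marker lists moved too. The calls given here are for PST vs. PSN, where 25.9% of all genes were called higher and 16.5% lower. Smooth muscle markers (8 genes) summed to between 1140 and 7940 RPKM in normal colon and 153 to 318 in tumors, and 8 of 8 were lower in PST vs. PSN, where Fbp2, the muscle form of its enzyme, differed by 0.03 and was not called. Goblet cell markers (6 genes) summed to 3580 to 11000 RPKM in normal colon and 621 to 1790 in tumors, and 5 of 6 were lower. Neutrophil markers (5 genes) went from 7.53 to 74.3 RPKM in normal colon to 188 to 1720 in tumors, and 4 of 5 were higher. Adipocytes are another known source of Pck1, and their markers (9 genes) summed to 42.3 to 67.1 RPKM in PSN and 69.7 to 189 in PST, where 1 of 6 tested was higher and none lower, with Plin1, Lep and Retn under 1 RPKM in every library. Macrophage markers had 1 of 8 higher and 1 lower, fibroblast markers none of 5 either way, lymphocyte markers 1 of 5 higher, skeletal muscle markers 1 of 4 lower and small intestinal enterocyte markers 2 of 3 lower. Their part in the members' values was not tested.

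The remaining genes of the pathway did not move as a block. Of 10 tested genes for other gluconeogenic or transport steps, 4 fell and 3 rose in PST vs. PSN, with a median of -0.23 beside 0.12 over all genes. Of all genes, 16.5% were called lower and 25.9% higher there, and no list was tested against those shares. Slc25a10, the mitochondrial dicarboxylate carrier, went from 276 to 360 RPKM in PSN to 80.6 to 112 in PST, without overlap (log2 fold change -1.67, SE 0.22, adjusted p = 4.96e-05). Slc37a4, which carries glucose-6-phosphate into the endoplasmic reticulum, went from 60.0 to 71.1 RPKM to 26.4 to 43.1 (-0.80, SE 0.16, adjusted p = 0.00103). Its relatives Slc37a2 (-3.50, SE 0.77, adjusted p = 0.00251) and Slc37a1 (-0.77, SE 0.15, adjusted p = 0.000846) also fell. The 3 that rose, named after their values were seen, were Mdh2 (0.50), Got1 (0.47) and Got2 (0.62), which shuttle malate and aspartate. Of these, Got2 was also called in PCT vs. PCN (0.66, adjusted p = 0.0141).

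Of 10 tested genes for steps that glycolysis and gluconeogenesis share, 1 fell and 1 rose in PST vs. PSN (median -0.34). The shares over all genes were 16.5% and 25.9%. Pgk1, phosphoglycerate kinase, went from 4.35 to 5.52 RPKM in PSN to 7.60 to 29.9 in PST, with PST replicate 1 far above the others (log2 fold change 1.27, SE 0.37, adjusted p = 0.0129). Gapdh and Pgk1 have processed copies in mammalian genomes that can take part of their reads, so their levels are uncertain. Other glycolytic genes had low values too, with PSN means of 2.48 RPKM for Eno1, 11.1 for Aldoa, 11.1 for Pkm and 13.5 for Ldha. Whether these are failed estimates was not tested, so a gene not called in these lists is not shown to be unchanged.

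Among 12 tested enzymes that run glycolysis against the members, 4 rose and 1 fell (median 0.46), beside 25.9% and 16.5% of all genes. Pfkp, a phosphofructokinase, went from 61.0 to 70.7 RPKM in PSN to 187 to 205 in PST (log2 fold change 1.54, SE 0.17, adjusted p = 1.14e-05). Pfkm, the muscle phosphofructokinase, fell (-1.33, SE 0.29, adjusted p = 0.00165). The smooth muscle markers given above were also low, and a link was not tested. Pfkfb3, which makes the compound that activates phosphofructokinase and inhibits fructose-1,6-bisphosphatase, rose by 1.71 (SE 0.32, adjusted p = 0.000637). Its mean was 5.87 RPKM in PST and 5.80 in PCT, against 1.41 in PSN and 4.68 in PCN, and it was not called in PCT vs. PCN (0.26, adjusted p = 0.572). Pfkm was not called there either (-0.73, adjusted p = 0.0597). Hk3, a hexokinase of white blood cells, went from 0.15 to 0.95 RPKM to 1.81 to 2.29 (1.49, SE 0.34, adjusted p = 0.00273). It reached 1 RPKM only in tumors, so it passed the filter for testing only through the groups where it was high. Neutrophil markers were also high, and a link was not tested.

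Of 18 tested genes that supply lactate, alanine, glutamine, glycerol or fructose, 5 fell and 4 rose (median -0.05). The shares over all genes were 16.5% and 25.9%. Slc16a3, a lactate exporter, went from 18.6 to 31.8 RPKM in PSN to 76.2 to 262 in PST (log2 fold change 2.34, SE 0.50, adjusted p = 0.00187). Slc5a8, which takes up lactate and short-chain fatty acids, went the other way, from 69.2 to 110 RPKM to 18.02 to 31.8 (-1.90, SE 0.40, adjusted p = 0.00172). Gpt, alanine aminotransferase, fell from 157 to 220 RPKM to 48.9 to 55.3 (-1.85, SE 0.19, adjusted p = 9.97e-06), and Khk, ketohexokinase, from 22.1 to 31.8 to 4.45 to 6.60 (-2.18, SE 0.23, adjusted p = 9.59e-06).

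Of 38 tested regulators of Pck1, 10 fell and 2 rose in PST vs. PSN (median -0.27), beside 16.5% and 25.9% of all genes. Ppargc1a, a coactivator of gluconeogenic genes in liver, went from 12.6 to 19.9 RPKM in PSN to 4.07 to 6.20 in PST (log2 fold change -1.46, SE 0.29, adjusted p = 0.000873). Both thyroid hormone receptors fell, Thrb by 1.53 (SE 0.26, adjusted p = 0.000268) and Thra by 1.45 (SE 0.18, adjusted p = 3.33e-05). Klf15, a fasting-responsive factor, was called lower (-1.25, SE 0.38, adjusted p = 0.0160) although its ranges overlapped, and was not called in PCT vs. PCN (-0.65, adjusted p = 0.212). Creb1, which binds cyclic AMP response elements, was not called (0.39, adjusted p = 0.233). It averaged 1.02 RPKM in PSN and 1.46 in PST, close to the minimum of 1 RPKM for testing. The glucocorticoid receptor Nr3c1 was not called either (-0.27, adjusted p = 0.189). The 2 regulators that rose were Prkaa1 (0.86) and Cebpb (0.80), and those that fell included Foxo1 (-0.68) and Hnf4a (-0.65). These 6 were named after their values were seen. Whether cyclic AMP or glucocorticoid signaling changed was not tested. In PCT vs. PCN, 21.0% of all genes were called higher and 11.7% lower. There 1 rose and 5 fell among the 38 regulators. Among 10 genes of other gluconeogenic steps it was 1 and 4, and among 10 of shared steps 1 and 1. For 12 opposing enzymes it was 3 and 0, and for 18 supply genes 4 and 6. No list was tested against those shares.

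**Figure D5:**
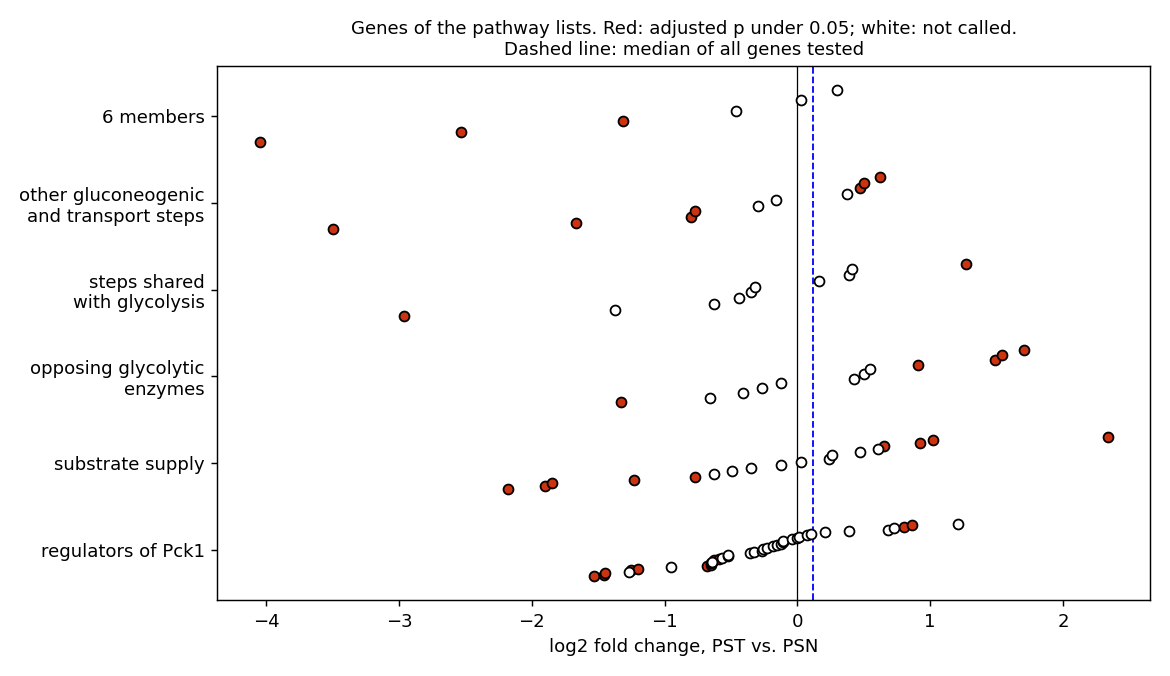
Log2 fold changes in PST vs. PSN of the 6 members and of the tested genes of 5 pathway lists, red where the adjusted p was under 0.05 and white where not, with a dashed line at the median of all genes (0.12). Red points lie on both sides of 0 in every list but the members, where the 3 red points are all below it.

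The genes whose levels followed Pck1 most closely over the 18 libraries, among the 8598 tested genes that averaged 5 RPKM or more, were Scin (r = 0.984), Ptprn2 (0.974), Adora2b (0.972), Slc25a10 (0.969) and Tpsg1 (0.968). These are Pearson correlations of log2 values, a description in which the gap between tumors and normal colon carries most of the likeness. Scin, which encodes an actin-severing protein, had 43.3 to 62.5 RPKM in PSN and 2.03 to 6.99 in PST. With group means removed, the highest were Scin (0.841), Gapdh (0.825), Kcnk5 (0.797), Lif (0.796) and Trip10 (0.785), so Scin was in both lists. Among the members, r with Pck1 was 0.943 for Pc, 0.453 for Pck2, 0.181 for Fbp2 and -0.334 for G6pc3, and 0.474, 0.157, -0.114 and -0.0389 with group means removed. Fbp1 was under the minimum mean and was not ranked.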

How the data were processed

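Poly(A) RNA libraries were made with a directional kit and read as paired ends. The authors deposited RPKM values per gene, not counts. Bowtie2 and DESeq2 are named in the submitters' processing notes, and the sources used here state no genome build, annotation or version. Of 17378 entries, 26 with names turned into dates were left out.

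Values were fitted as log2(RPKM + 0.5) with limma 3.58.1 in R 4.3.3 (trend and robust moderation, statmod 1.5.0), over the 11544 genes that reached 1 RPKM in 3 or more libraries, all 18 libraries and 12 residual degrees of freedom, with Benjamini-Hochberg adjustment. The procedure was tested on simulated data. Depth limits the precision of low values, and no counting interval can be given. Whether libraries of a group are separate rats is implied by the study design, and p-values measure the spread between these libraries only.

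The members and lists were chosen with earlier results of these data known. Named genes were all 6 members, up to 4 called genes per pathway list with the largest change in PST vs. PSN, and the 5 genes most correlated with Pck1 in each of 2 ways. A gene that this rule named is not reported here. The study describes Pirc tumor and normal-looking colon as matched within animals, and same-numbered libraries were taken as 1 animal in the paired fit. Their deviations from group means correlated at 0.0965, 0.0886 and 0.193 (PCN and PCT) and 0.128, -0.0496 and 0.0219 (PSN and PST). Alternatives were another pseudocount, filter, scaling, moderation, set of libraries, array weights, the replicate block and leaving out each library. Promoter stretches were from RefSeq (GRCr8). Small RNA data were not used here.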

Additional observations from a re-analysis of the deposited data

How the results depend on the processing

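The calls of Pck1, Fbp1 and Pc in PST vs. PSN and in PST vs. WSN held under all 27 alternatives, with the highest adjusted p at 0.0105 (Pc, PST vs. WSN). Leaving out a library of a group that is not compared changes the spread but not the estimate. The replicate block called Pck2 in PST vs. PSN (-0.46, adjusted p = 0.0274) and changed no other call of a member. Outside PST vs. PSN and PCT vs. PCN, the block was the replicate number over all 6 groups, which joins different rats. That block moved the count of called genes from 1 to 4 in PSN vs. PCN and from 0 to 2 in the interaction. Median-of-ratios scaling took the median of all genes in PST vs. PSN from 0.12 to 0.01 and the share of higher calls from 61.1% to 49.8%, and in PCT vs. PCN from 64.2% to 49.8%. Under that scaling Fbp2 was at -0.09 in PST vs. PSN and Fbp1 at -0.01 in WSN vs. WCN. With array weights Fbp1 was at -0.02 in WSN vs. WCN and G6pc3 at -0.01 in PSN vs. WSN. Fitting only the compared libraries gave 3375 called genes in place of 5072 in PST vs. WSN, 0 in PCN vs. WCN and 0 in PSN vs. PCN. PCN vs. WCN, with 15 called genes, had 6 with a pseudocount of 1, 8 with a minimum of 5 RPKM and 72 with array weights, which gave 2 in PSN vs. PCN. PST vs. PCT had 5 with no filter. Median-of-ratios scaling turned Pck2 in PCT vs. PCN from 0.12 to -0.01, and array weights turned G6pc3 in PCT vs. WCN from -0.03 to 0.01 and moved Pck1 in PST vs. PCT from 1.45 to 0.68. With pseudocounts of 0.1 and 1, Fbp1 moved to -2.46 and -1.63 in PCT vs. PCN and to -3.27 and -2.32 in PCT vs. WCN. The causes were not tested. Leaving out each library in turn, values that changed sign ranged as follows. In PST vs. PSN, Fbp2 ranged from -0.04 to 0.11, and in PST vs. WSN from -0.07 to 0.23. In PCN vs. WCN, Pc ranged from -0.21 to 0.01. In PSN vs. WSN, Fbp2 ranged from -0.10 to 0.20 and G6pc3 from -0.20 to 0.22. In PSN vs. PCN, Pck2 ranged from -0.05 to 0.36, Fbp2 from -0.17 to 0.04 and G6pc3 from -0.02 to 0.29. In WSN vs. WCN, Pck1 ranged from -0.37 to 0.18, Pck2 from -0.28 to 0.13, Fbp1 from -0.07 to 0.22, Pc from -0.30 to 0.00 and G6pc3 from -0.37 to 0.04. In PST vs. PCT, Fbp1 ranged from -0.08 to 0.25. In PCT vs. PCN, Pck2 ranged from -0.06 to 0.23, and in PCT vs. WCN, G6pc3 from -0.11 to 0.06. Pck1 in PST vs. PCT kept its sign, from 0.91 to 1.98. Counts of called genes ranged from 3 to 14 in PCN vs. WCN, 0 to 2 in PSN vs. PCN, 0 to 18 in PST vs. PCT (18 without PST replicate 3), 0 to 3 in the interaction and 2314 to 4248 in PCT vs. PCN, lowest without PCN replicate 3 (2361 without PCT replicate 1). Of 1862 values recomputed in all, 1795 kept their direction and side of the threshold or moved within their limits. Many of these left out a library that the comparison does not use. With 3 libraries a group and no counts, the intervals of the uncalled members show which sizes of difference were not told from 0.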
